A study of Mus musculus with 24 samples.

Results

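The genes described here are the mouse metalloproteases of the extracellular space and cell surface and their tissue inhibitors: the matrix metalloproteases (Mmp), the disintegrin metalloproteases (Adam), their secreted thrombospondin-motif relatives (Adamts), the ADAMTS-like proteins (Adamtsl) and the tissue inhibitors of metalloproteases (Timp). They were chosen by name, as every protein-coding gene whose symbol is Mmp, Timp, Adam or Adamts followed by a digit or starts with Adamtsl. This gave 85 of the 27179 genes counted, namely 23 Mmp, 4 Timp, 34 Adam, 19 Adamts and 5 Adamtsl genes. RNA had been sequenced from sorted epithelial cells of the pubertal mouse mammary gland, whose tissue was microdissected to separate ducts from terminal end buds (the bulbous growing tips of the ductal tree, TEBs below). Lineage-negative EpCAM+ cells were sorted into a basal gate with high CD29 and a luminal gate with low CD29. Mice of the Elf5 model carried Elf5-rtTA-IRES-GFP, in which GFP reports Elf5, a luminal progenitor gene. Mice of the PR-cre model carried PR-cre/Rosa26-LSL-eYFP, in which Cre from the progesterone receptor gene switches on YFP, so that YFP marks cells that express the receptor or descend from cells that did. Basal cells were taken from both models, and luminal cells were split into GFP+ and GFP- or YFP+ and YFP- cells, so that every animal carried a reporter and no group came from mice without one. With ducts and TEBs this made 12 groups of 2 libraries, 24 in all.

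Matrix metalloproteases cut collagens and other matrix proteins and are made as inactive precursors. Secreted members such as MMP2 are activated at the cell surface by membrane-type members such as MMP14, a step in which TIMP2 serves as the bridge, while excess TIMP blocks the same enzymes. ADAM10 and ADAM17 release growth factors, receptors and adhesion proteins from the cell surface, and amphiregulin shed by ADAM17 acts on stromal receptors during pubertal duct growth. ADAMTS enzymes cut proteoglycans such as versican and process procollagens, ADAMTS-like proteins lack the protease domain and bind fibrillin microfibrils, and TIMP3 inhibits members of all the protease families.

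Levels are given as counts per 1e6 scaled library counts (CPM). Library totals ran from 31.3 to 52.5 in units of 1e6 counts, and 3 counts in a single library corresponded to between 0.058 and 0.097 CPM. Where a group at 0 counts is set at a floor below, the 3 counts are spread over its 2 libraries, so the floor in mean CPM is lower than this. Of the 85 genes, 65 passed the filter on low counts: 17 Mmp, 4 Timp, 20 Adam, 19 Adamts and 5 Adamtsl genes. The other 20 reached at most 0.417 CPM, and 10 of them had no count in any library. The gates carried their markers: mean Acta2 was 7184 CPM in basal and 7.89 CPM in luminal libraries, Epcam was 243.9 against 1328 CPM, and Itgb1, which encodes CD29, was 1448 against 580.9 CPM. The 12 listed keratinocyte genes summed to 2520 CPM in luminal GFP- duct replicate 2 and 513 CPM in luminal YFP- TEB replicate 2, so several values that rest on those libraries are also given without them. Luminal GFP+ TEB libraries summed to 407.5 and 473.5 CPM, of which Klk10 alone gave 371 and 428 CPM. Krt1 and Krt10 set the 2 libraries apart, at 669 and 991 CPM in luminal GFP- duct replicate 2 and 96.8 and 204 CPM in luminal YFP- TEB replicate 2, against at most 9.03 and 27.5 CPM in the other 22. Basal-type genes were raised in them too. Krt5, Krt14 and Trp63 were at 1960, 1120 and 202 CPM in the GFP- library and 453, 267 and 43.8 CPM in the YFP- library. Acta2 was at 10.6 and 6.17 CPM there.

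Promoters of genes the results turn on are printed here, together with those of scarce Mmp genes for contrast. The RefSeq promoter table (GRCm38.p6, 250 bases before to 50 bases after each start) held 59 windows for 54 of the 85 genes. The following motifs were searched on both strands: the AP-1 site TGANTCA, the PEA3 or ETS site AGGAAG, the GC box GGGCGG and the TATA box TATAAA. The AP-1 letters stood in 22.0% of the family's windows and 7.81% of all 32851 windows, and the TATA letters in 27.1% against 13.6%. The GC box stood in 45.8% against 35.7%, and the PEA3 letters in 37.3% against 35.4%. Windows are also given by transcript level per length in these cells. Of the 27 genes with a mean of at least 1 RPKM (CPM per kilobase of counted exon) in a gate and tissue, 2 held the AP-1 letters, 2 the TATA letters, 8 the PEA3 letters and 21 the GC box. Of the 27 below 1 RPKM throughout, 11 held AP-1, 14 TATA, 13 PEA3 and 6 the GC box. Many of the AP-1 and TATA matches came from neighbouring Mmp genes on chromosome 9: outside that cluster 1 and 1 of 26 genes above the limit and 4 and 6 of 18 below it held the AP-1 and TATA letters, and 21 and 6 the GC box. Below are the 120 bases before the start, with matches to any of these motifs in capitals, first for genes of the chromosome 9 Mmp cluster and then for genes that were abundant in basal or luminal cells. Mmp3 (stromelysin, chr9:7445702-7445821, plus strand), Mmp10 (chr9:7502222-7502341, plus) and Mmp13 (a collagenase, chr9:7272394-7272513, plus) stand for the cluster. Adamts1 (chr16:85803114-85803233, minus), Mmp14 (chr14:54431478-54431597, plus), Mmp15 (chr8:95352176-95352295, plus) and Timp3 (chr10:86300292-86300411, plus) stand for the abundant genes.
Mmp3: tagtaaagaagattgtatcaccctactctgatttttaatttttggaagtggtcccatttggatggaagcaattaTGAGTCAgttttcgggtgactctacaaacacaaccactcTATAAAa
Mmp10: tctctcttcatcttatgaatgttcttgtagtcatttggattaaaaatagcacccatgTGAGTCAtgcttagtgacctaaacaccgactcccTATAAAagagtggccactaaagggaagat
Mmp13: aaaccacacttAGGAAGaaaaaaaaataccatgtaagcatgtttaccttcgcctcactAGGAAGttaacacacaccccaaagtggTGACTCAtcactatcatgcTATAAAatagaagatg
Adamts1: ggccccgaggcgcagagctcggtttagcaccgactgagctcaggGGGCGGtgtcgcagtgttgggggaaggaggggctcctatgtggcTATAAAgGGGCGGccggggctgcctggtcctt
Mmp14: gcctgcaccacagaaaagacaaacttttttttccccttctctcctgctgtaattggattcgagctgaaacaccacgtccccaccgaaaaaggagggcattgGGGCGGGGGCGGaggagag
Mmp15: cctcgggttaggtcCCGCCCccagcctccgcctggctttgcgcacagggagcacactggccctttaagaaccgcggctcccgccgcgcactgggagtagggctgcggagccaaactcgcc
Timp3: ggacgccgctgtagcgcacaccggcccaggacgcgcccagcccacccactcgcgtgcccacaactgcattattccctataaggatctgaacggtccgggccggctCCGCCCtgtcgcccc

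The cluster on chromosome 9 (7272514 to 7699585, GRCm38.p6) holds 10 of the 23 Mmp genes: Mmp1a, Mmp1b, Mmp3, Mmp7, Mmp8, Mmp10, Mmp12, Mmp13, Mmp20 and Mmp27. Among them 8 had an AP-1 match, 9 a TATA match and none a GC box in the 300-base window. Apart from Mmp3, these collagenase and stromelysin genes were near the limit of detection in the sorted cells. Mmp3 ranged from 0.216 to 8.53 CPM (median 1.3) in basal libraries, with the highest value in PR-cre TEB replicate 2. In luminal libraries it was at most 2.64 CPM (median 0.207). It was among the members called higher in basal cells in the comparison below, with 1 luminal group at 0 counts. Mmp13 reached 1.64 CPM in luminal GFP- TEB replicate 2, and none of the other 8 exceeded 0.503 CPM in any library. Mmp7 (matrilysin) did not exceed 0.322 CPM, and the gelatinase Mmp9, which lies outside the cluster, did not exceed 0.787 CPM.

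Compared per length, a small set of genes made up most of the family's transcripts, and the set differed between the gates. In basal cells the highest mean level was that of Adamts1, at 259 ± 81.1 RPKM (SD, n = 8 libraries), followed by Timp3 at 134, Timp2 at 103, Mmp14 at 92.3, Mmp2 at 90.3 and Adamts18 at 86.1 RPKM. The basal ranges of Adamts1 and Timp3, of Timp3 and Timp2, and of Timp2 and Mmp14 overlapped, as did those of Mmp14, Mmp2 and Adamts18. The ranges therefore did not separate neighbours in this order. In luminal cells Adam10 was first at 111 RPKM (n = 16), then Mmp14 at 72.4, Mmp15 at 64.2, Timp2 at 49.4, Adam9 at 40.6, Adam15 at 29.8 and Adam17 at 22.9 RPKM, again with overlapping ranges between neighbours. In these means over ducts and TEBs together, the inhibitor genes Timp3 and Timp2 followed Adamts1 in basal cells, whereas Timp3 averaged 11.1 RPKM in luminal cells. The order differed in TEBs. In basal Elf5 TEBs Mmp14 averaged 284.2 CPM over 2597 counted bases. Timp2 averaged 252.4 CPM over 3622 bases there and Timp3 309.2 CPM over 4681 bases, so Mmp14 was above both inhibitors per length. The plot of levels per length shows these ranges.

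**Figure D1:**
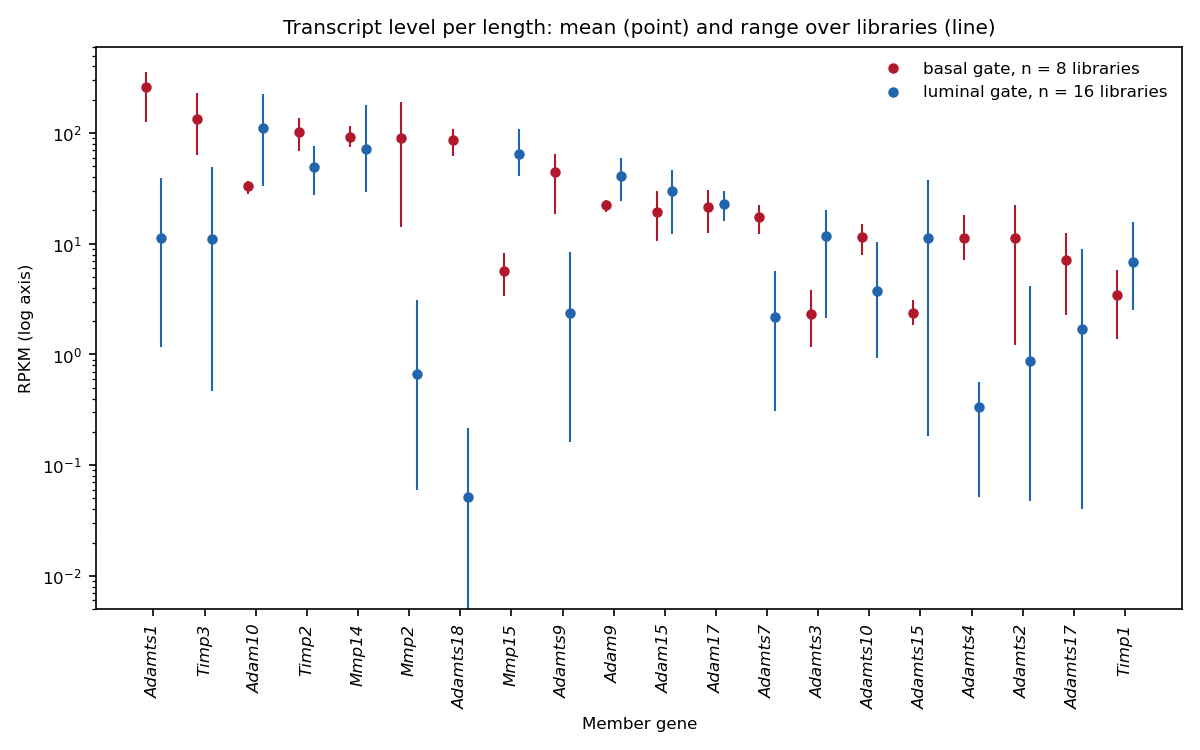
Mean RPKM (points, log axis) and range over libraries (lines) of the 20 members with the highest mean in either gate, for 8 basal (red) and 16 luminal (blue) libraries; a line that runs to the lower edge includes a library at 0. Adamts1, Timp3, Mmp2 and Adamts18 sit higher in the basal gate and Mmp15 in the luminal gate, with no overlap of the ranges.

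Basal cells were set against luminal cells over both tissues and models to find which members differed between the compartments. Of the 65 members tested, 38 were higher and 10 lower in basal cells (edgeR quasi-likelihood test, adjusted p below 0.05). Among all 18109 genes tested, 67.7% were called, 35.5% higher and 32.2% lower. The median log2 difference of the members was 1.89, or 1.12 with the 22 members that had a group at 0 counts set at a floor of 3 counts, against 0.02 over all genes. By family, 14 of 19 Adamts and 4 of 5 Adamtsl genes were higher, as were 9 of 17 Mmp, 9 of 20 Adam and 2 of 4 Timp genes. Among the 17 members not called, 8 had a group with no counts and gave no usable test. In a bulk library, a lower share of cells that express a gene and less RNA per cell cannot be told apart. In ducts alone 35 members were higher and 9 lower (63.3% of all genes called, 33.5% higher and 29.8% lower), and in TEBs alone 33 and 11 (58.8%, 30.8% higher and 28% lower).

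**Figure D2:**
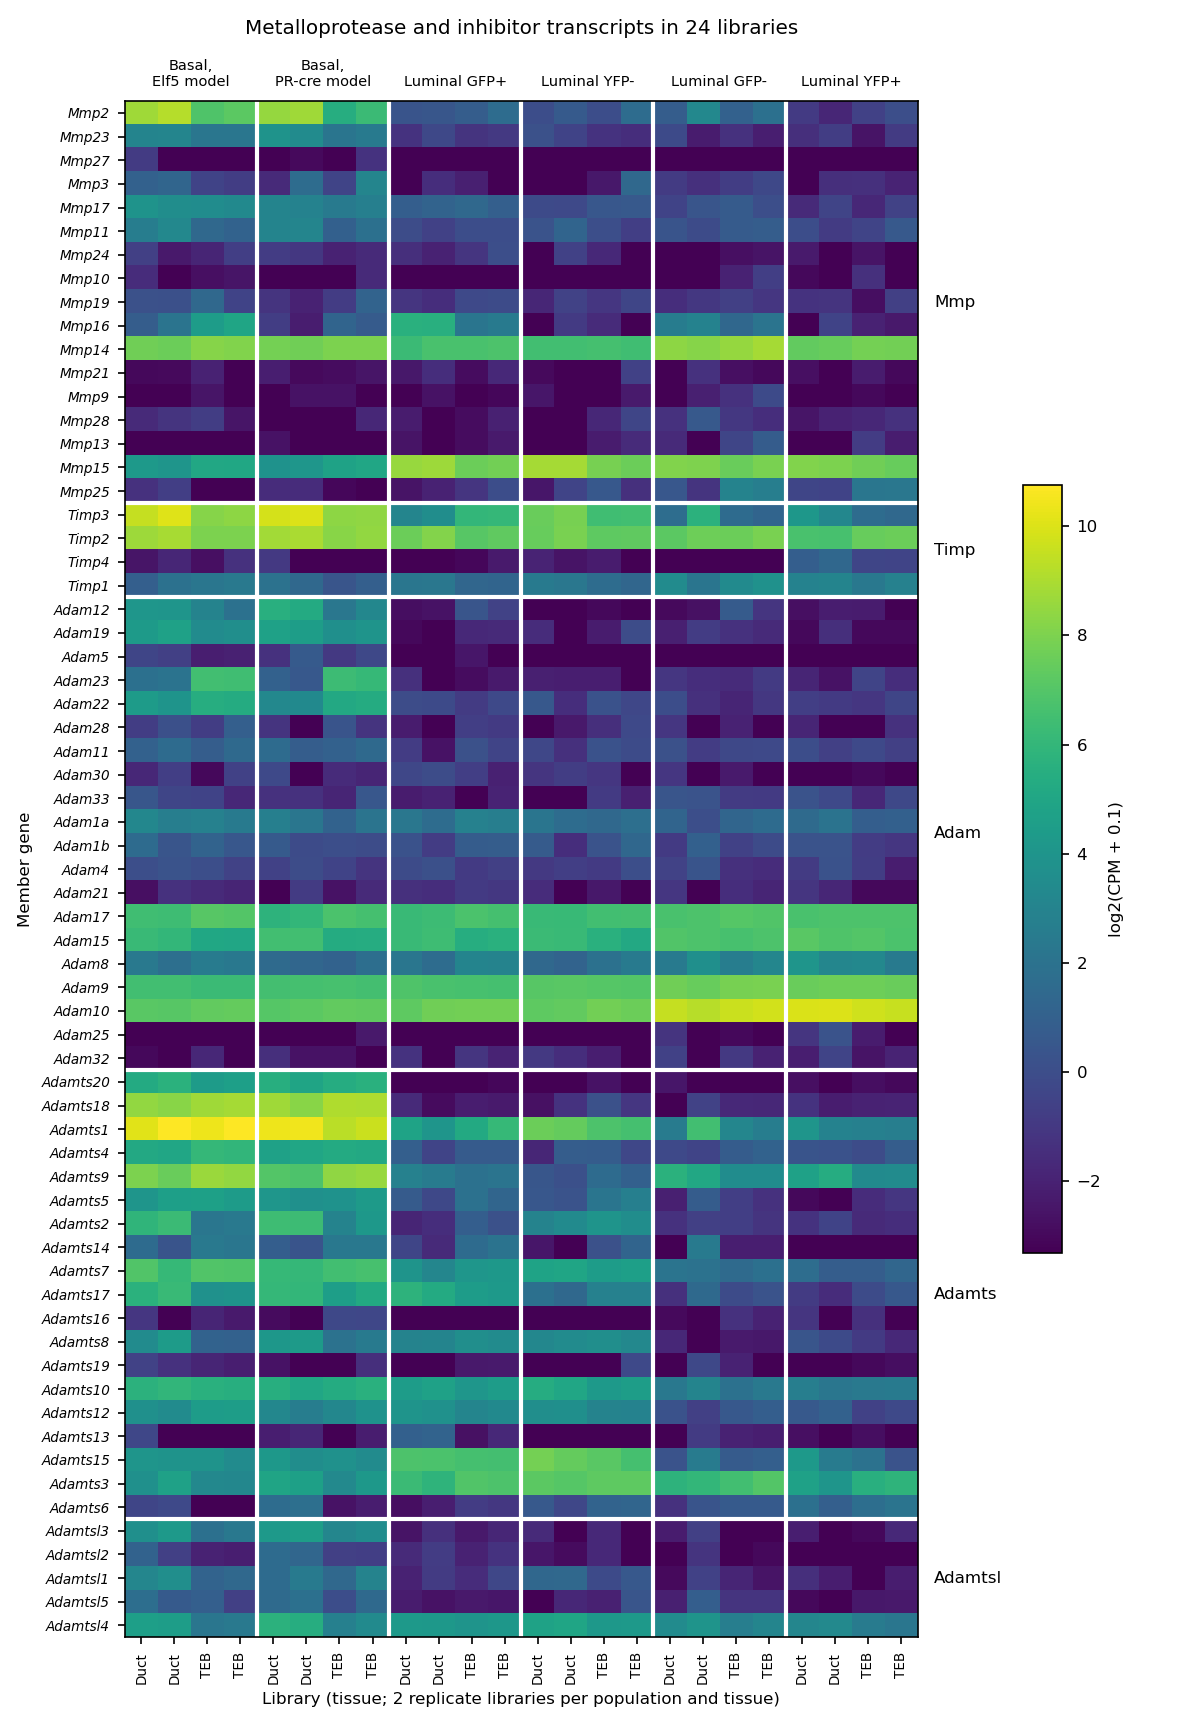
Log2(CPM + 0.1) of the 65 tested members (rows, by family and by basal minus luminal difference) in 24 libraries (columns, 6 sorted populations, ducts then TEBs); rows are to be read across libraries, since CPM is not adjusted for length. In 14 of the 19 Adamts rows the basal columns are called higher, the Mmp15 row is darkest in them, and the Adam10 row is brightest in luminal GFP- and YFP+ cells.

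The largest single differences in favour of basal cells were among the secreted Adamts proteases, while the family median was 3.32 for Adamts and 3.73 for Adamtsl genes with groups at 0 set at the floor. Adamts18, which is expressed by myoepithelial cells, ranged from 301 to 534 CPM with a median of 432 CPM in the 8 basal libraries, and from 0 to 1.04 CPM in the 16 luminal libraries. The gates were fully separated (log2 difference 10.89 ± 0.25 SE, adjusted p = 2.68e-14; 11.68 without luminal GFP- duct replicate 2). Adamts20 behaved in the same way, at 21.4 to 51.6 CPM in basal libraries and at most 0.084 CPM in luminal ones, of which 3 of 8 groups had no count. Adamts1, a versican-cutting protease, had a basal range of 622 to 1726 CPM (median 1360) and a luminal range of 5.65 to 193 CPM (median 22.2), a log2 difference of 5.35 ± 0.34 (adjusted p = 5.03e-09). Adamts9, a second versicanase, ranged from 111 to 391 CPM against 0.97 to 50.8 CPM (4.98 ± 0.10, adjusted p = 2.56e-16). The aggrecan-cutting enzymes Adamts4 and Adamts5 were also higher, with log2 differences of 5.04 ± 0.24 and 4.81 ± 0.28, and Adamts7 differed by 3.63 ± 0.12. Adamts2, a procollagen N-proteinase, averaged 41.9 against 3.25 CPM, but the gates overlapped because luminal YFP- libraries held 7.62 to 15.6 CPM while basal Elf5 TEB libraries held 4.54 and 5.10 CPM. Another procollagen N-proteinase, Adamts3, went the other way, at 9.01 to 29.2 CPM in basal and 16.4 to 156 CPM in luminal libraries (-2.24 ± 0.15, adjusted p = 2.86e-09), again with overlap.

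Versican and other ADAMTS substrates were followed as companions. In a list of ADAMTS substrates and fibrillin partners, 10 of 11 genes tested were higher in basal cells, against 35.5% of all genes. Vcan (versican) averaged 2005 against 4.61 CPM, Fbn1 (fibrillin-1) 489.3 against 1.57 CPM and Reln (reelin, a substrate of ADAMTS proteases) 904.1 against 0.428 CPM. Fibroblast markers were present in the basal libraries as well: their 12 genes summed to between 683 and 6370 CPM in basal and 33.3 to 818 CPM in luminal libraries, and 10 of 12 were called higher. Postn made up most of the basal mean, at 2445 CPM. Among the others called higher, Col3a1 ranged from 72.2 to 482 CPM in basal and from 1.74 to 77.5 CPM in luminal libraries. Pdgfrb ranged from 4.12 to 31.6 CPM against 0 to 3.18 CPM. The defining markers Dcn and Pdgfra averaged 155.6 and 18.3 CPM in basal and 19.4 and 9.77 CPM in luminal libraries. Pdgfra reached 42.6 CPM in a luminal library against at most 23.1 CPM in a basal one, and Col6a3 was lower in basal cells (25.3 against 137.9 CPM). Their part in the basal excess of matrix proteases was not tested.

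Among the matrix metalloproteases, Mmp2 and Mmp15 separated the gates completely and in opposite directions. Mmp2, the type IV collagenase, ranged from 43.2 to 588 CPM (median 260) in basal libraries and from 0.18 to 9.45 CPM (median 1.36) in luminal ones, a log2 difference of 7.08 ± 0.29 (adjusted p = 2.81e-11). The highest luminal value belonged to GFP- duct replicate 2, the library with keratinocyte transcripts. Mmp15, which encodes the membrane-type enzyme MT2-MMP, ranged from 14.5 to 35.2 CPM (median 23.7) in basal and from 177 to 462 CPM (median 243) in luminal libraries. No basal library came near a luminal one (-3.50 ± 0.07, adjusted p = 7.28e-17). Mmp14, which encodes MT1-MMP, was abundant in both compartments: 193 to 298 CPM in basal libraries lay within the luminal span of 76.3 to 462 CPM, and the mean difference was 0.58 ± 0.06 on the log2 scale (adjusted p = 5.23e-08). Low-level members with basal excess were the membrane-anchored Mmp23 (mean 7.63 against 0.412 CPM) and Mmp17 (9.50 against 1.16 CPM) and the stromelysin-3 gene Mmp11 (5.31 against 1.04 CPM). Mmp25, a membrane-anchored member typical of leukocytes, did not exceed 0.516 CPM in basal libraries and reached 7.76 CPM in luminal ones. Luminal Mmp16 came almost wholly from the Elf5 model. It averaged 26.6 CPM in GFP+ libraries (4.30 to 48.7 CPM) and 5.09 CPM in GFP- libraries, against 0.212 CPM in YFP+ and 0.164 CPM in YFP- libraries. Mmp16 was called higher at 1.07 ± 0.45 (adjusted p = 0.0453) although its means were 7.79 and 8.01 CPM; the call was lost when any of 18 single libraries was left out, among them basal PR-cre duct replicate 1 (0.71, adjusted p = 0.368), while the value was 1.86 without luminal YFP+ duct replicate 2.

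The inhibitors were unequally distributed. Timp3, whose protein is held in the matrix, ranged from 295 to 1073 CPM (median 533) in basal and from 2.21 to 230 CPM (median 14.7) in luminal libraries, with no overlap (4.74 ± 0.32, adjusted p = 7.96e-09). Timp2 was high in both gates, at 251 to 495 CPM against 99.7 to 277 CPM, and the highest luminal libraries overlapped the lowest basal ones (1.06 ± 0.08, adjusted p = 9.12e-10). Timp1, the soluble inhibitor induced by many cytokines, was scarce, at 1.22 to 5.12 CPM in basal and 2.26 to 13.9 CPM in luminal libraries (-0.91 ± 0.18, adjusted p = 0.000277). Timp4 was at most 0.401 CPM in basal cells and 2.46 CPM in luminal cells, the latter in YFP+ ducts. Reck, a membrane-anchored inhibitor of metalloproteases outside the Timp family, averaged 42.4 against 8.35 CPM (2.53 ± 0.11, adjusted p = 1.5e-12).

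Among the membrane-bound ADAMs, 9 of 20 were higher and 5 lower in basal cells, while 35.5% of all genes were higher and 32.2% lower. Adam10 ranged from 130 to 170 CPM (median 154) in the basal gate and from 152 to 1037 CPM (median 413) in the luminal gate, a log2 difference of -1.38 ± 0.06 (adjusted p = 1.04e-12). The luminal libraries divided by reporter gate, and the low gates overlapped the basal range. Adam9 averaged 89.5 against 162 CPM (-0.80 ± 0.04) and Adam15 58.2 against 89.0 CPM (-0.62 ± 0.06), and the scarce leukocyte-type Adam8 3.73 against 6.86 CPM (-0.78 ± 0.19). Adam17, which encodes the TNF and amphiregulin sheddase, had overlapping ranges of 55.2 to 135 CPM and 71.6 to 132 CPM. Its difference of -0.13 ± 0.04 (adjusted p = 0.00983) was -0.08 and no longer called with other size factors (adjusted p = 0.0942) or with DESeq2 (adjusted p = 0.0929). Adam22 and Adam23 encode ADAMs without a working catalytic site that bind LGI proteins in neurons, and both were higher in basal cells: Adam22 at 9.57 to 43.2 CPM against 0.179 to 1.35 CPM (5.27 ± 0.22), and Adam23 at 1.35 to 91.5 CPM against 0 to 0.638 CPM (6.40 ± 0.25; 7.09 without luminal GFP+ duct replicate 1). The meltrin genes Adam12 and Adam19, which are active proteases, were at 3.64 to 47.2 and 10.9 to 26.4 CPM in basal libraries and did not exceed 1.54 and 0.870 CPM in luminal ones.

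Genes that act on or with the proteases were read from lists. Of 14 proprotein convertases and ADAM partners tested, 4 were higher and 9 lower in basal cells. For this and the following lists, the shares over all genes were 35.5% higher and 32.2% lower. The convertases Pcsk5 and Pcsk6 were higher (6.30 ± 0.13 and 2.99 ± 0.14), while the ADAM17 regulator Rhbdf2 (-2.25 ± 0.09) and the ADAM10-binding tetraspanins Tspan33 (-4.74 ± 0.12) and Tspan17 (-3.94) were lower and Tspan5 was higher (3.67 ± 0.21). In the plasminogen system, which activates several MMPs, 4 of 8 were higher and 1 lower, with log2 differences of 4.12 ± 0.19 for Plau (urokinase) and 3.20 ± 0.24 for Plat (tissue activator) beside 4.28 ± 0.11 for their inhibitor Serpine2. Among 8 EGF-family ligands released by ADAMs, 3 were higher and 4 lower: Nrg1 averaged 112.3 against 0.757 CPM, and Areg (amphiregulin) 7.13 against 954.8 CPM. Astacin-type procollagen proteases and their enhancers were higher in 4 of 5, among them Bmp1 (1.49 ± 0.07).

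TEBs were compared with ducts to find which members differed with the growing tip. In the basal gate 9 of 65 members were higher and 14 lower in TEBs, while 43.6% of all genes were called, 20.9% higher and 22.8% lower. The median log2 difference of the members was -0.28, or -0.24 with the 10 members that had a group at 0 set at the floor, against -0.04 over all genes. Members called numbered 6 of 17 Mmp, 2 of 4 Timp, 6 of 20 Adam, 7 of 19 Adamts and 2 of 5 Adamtsl genes. Higher in TEBs were Adam23, Adam22, Mmp16, Adamts9, Mmp15, Adamts12, Adam17, Mmp14 and Adam10. Both abundant inhibitors, Timp3 and Timp2, were lower in TEBs, as were Mmp2, Mmp11, Adamts2, Adamts3 and 8 further members.

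Adam23 showed the largest rise in basal TEBs. It was at 3.56 and 4.07 CPM in Elf5 ducts and 2.01 and 1.35 CPM in PR-cre ducts, against 91.5 and 88.2 CPM in Elf5 TEBs and 80.7 and 67.8 CPM in PR-cre TEBs. All 4 TEB libraries were far above all 4 duct libraries (5.01 ± 0.38, adjusted p = 6.35e-08). Its relative Adam22 was at 9.57 to 21.0 CPM in ducts against 35.7 to 43.2 CPM in TEBs (1.58 ± 0.34, adjusted p = 0.00113). Adamts9 was at 255, 187, 125 and 111 CPM in the duct libraries and 391, 359, 345 and 383 CPM in the TEB libraries, which did not overlap (1.19 ± 0.16, adjusted p = 1.62e-05). Adam17 was at 85.5, 84.4, 55.2 and 63.0 CPM in ducts against 135, 128, 109 and 96.0 CPM in TEBs (0.71 ± 0.07, adjusted p = 2.85e-07). Mmp15, low in basal cells, was at 14.5 to 19.6 CPM in ducts against 27.8 to 35.2 CPM in TEBs (0.95 ± 0.10, adjusted p = 9.07e-07). Mmp14 rose less, from 193 to 227 CPM in ducts to 254 to 298 CPM in TEBs (0.36 ± 0.09, adjusted p = 0.00476). Mmp16, another membrane-type member, differed by 2.88 ± 0.69 (adjusted p = 0.00335; 3.59 without PR-cre duct replicate 1) but its levels depended on the model, reaching 21.7 and 30.4 CPM in Elf5 TEBs and 2.23 and 1.53 CPM in PR-cre TEBs. Adam10 was higher by 0.26 ± 0.09 (adjusted p = 0.0287). That call was lost with other size factors (0.21, adjusted p = 0.0727), with DESeq2 (0.21, adjusted p = 0.0614), without Elf5 TEB replicate 2 (0.25, adjusted p = 0.0694) and without PR-cre duct replicate 1 (0.26, adjusted p = 0.0563).

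The members that were lower in basal TEBs included the main secreted collagenase of these cells and its inhibitors. Mmp2 was at 424, 588, 371 and 428 CPM in ducts against 116, 150, 43.3 and 78.0 CPM in TEBs, with no overlap (-2.33 ± 0.42, adjusted p = 0.000515). Timp3 was at 722, 1073, 928 and 1015 CPM in ducts against 295, 324, 328 and 345 CPM in TEBs (-1.53 ± 0.51, adjusted p = 0.0274). The 8 Timp3 values did not overlap, but its call was lost when any library except Elf5 duct replicate 1 was left out, with adjusted p from 0.0564 without PR-cre duct replicate 1 to 0.0924 without Elf5 TEB replicate 1. Timp2 fell from 419 to 495 CPM in ducts to 251 to 350 CPM in TEBs (-0.67 ± 0.13, adjusted p = 0.000371). Adamts2 was at 59.4 to 84.4 CPM in ducts against 4.54 to 18.4 CPM in TEBs (-3.24 ± 0.26, adjusted p = 7.19e-08), and its relative Adamts3 fell by 1.06 ± 0.23. Adamtsl4, which binds fibrillin-1, was at 22.4 to 51.7 CPM in ducts against 4.44 to 10.5 CPM in TEBs (-2.38 ± 0.16, adjusted p = 7.78e-09). Lower too were Adamts8 (-2.51 ± 0.32), Adam12 (-2.11 ± 0.42), Mmp11 (-1.66 ± 0.36), Adamts17 (-1.62 ± 0.37) and Adam15 (-1.11 ± 0.09). Adamts6 and Mmp25 had no count in either basal Elf5 TEB library and at most 3.40 and 0.516 CPM in basal ducts. Adamtsl2 (-2.77 ± 0.96, adjusted p = 0.0292) lost its call when any of 7 libraries was left out, with -2.10 and adjusted p = 0.127 without Elf5 duct replicate 1.

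Several abundant basal members were not called between TEB and duct. Adamts1 averaged 1125 CPM in TEBs and 1409 CPM in ducts (-0.43, adjusted p = 0.566), with PR-cre TEBs at 622 and 804 CPM and Elf5 TEBs at 1347 and 1726 CPM. Adamts18 differed by 0.47 (adjusted p = 0.203) with overlapping libraries. The 12 fibroblast genes summed to 4060 to 6370 CPM in basal ducts and 683 to 1860 CPM in basal TEBs, with Postn (periostin) at 4545 against 344.8 CPM, and 10 of the 12 were not called. Col1a1, Dcn and Pdgfra averaged 70.8, 177.6 and 16.2 CPM in ducts against 113.7, 133.6 and 20.4 CPM in TEBs. Basal identity genes moved with tissue, with sums of 32800 to 35600 CPM in ducts against 8650 to 15900 CPM in TEBs and 6 of 10 called lower, among them Acta2 at 9785 against 4583 CPM. Immune genes summed to 27.2 to 56.6 against 6.03 to 10.3 CPM, endothelial and pericyte genes to 150 to 246 against 75.4 to 130 CPM and adipocyte genes to 12 to 43.7 against 3.24 to 7.89 CPM. The part of these marker differences in the protease and inhibitor values was not tested.

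**Figure D3:**
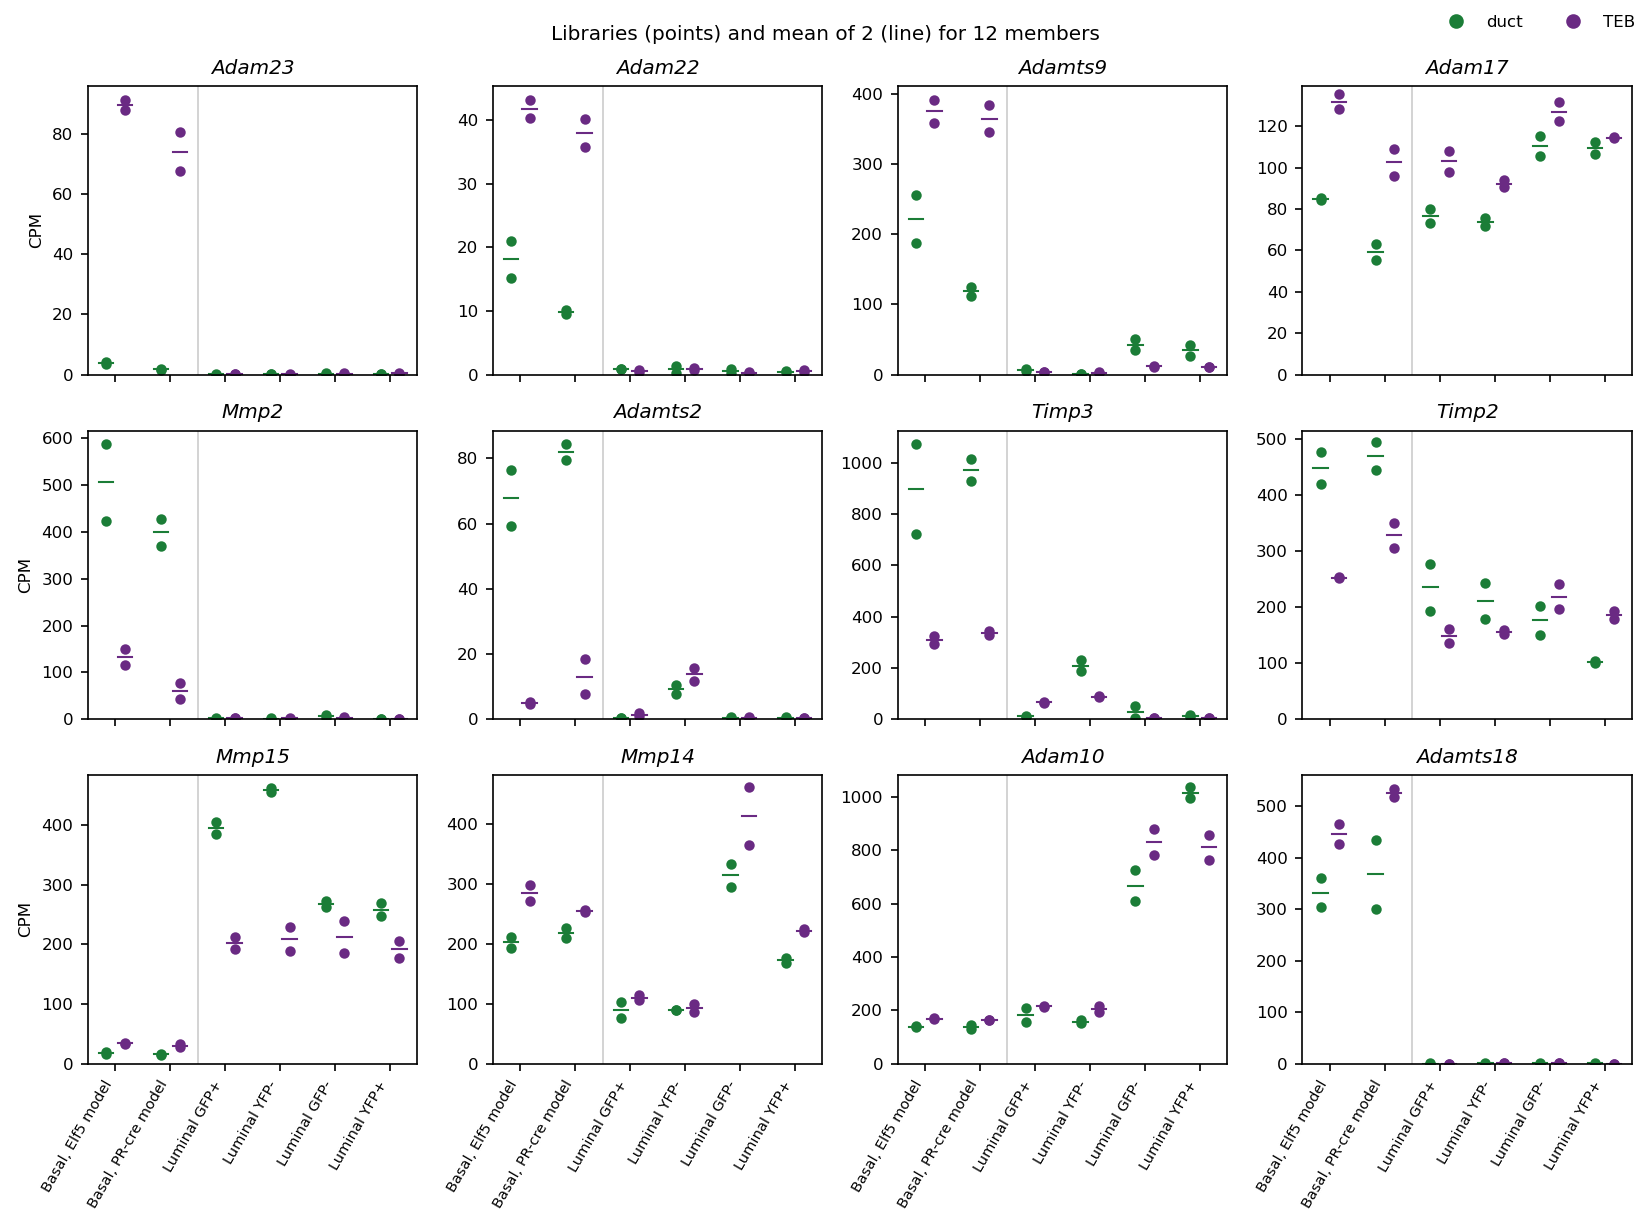
CPM of 12 members in each library (points) with the mean of 2 (line), for ducts (green) and TEBs (purple) in 6 sorted populations; each panel has its own axis from 0, and the grey line divides basal from luminal gates. In both basal models the TEB points lie above the duct points for Adam23, Adam22, Adamts9 and Adam17 and below them for Mmp2, Adamts2, Timp3 and Timp2, while the Mmp15 points lie higher in basal TEBs and lower in luminal TEBs.

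Both mouse models gave the basal pattern separately. In Elf5 basal cells 7 members were higher and 12 lower (36.4% of all genes, 17.2% higher and 19.2% lower). In PR-cre basal cells 5 were higher and 11 lower (24.7%, 12% higher and 12.7% lower), each from 2 against 2 libraries. The models share no library, and 14 members were called in both, 73.7% of the 19 in the Elf5 model and 87.5% of the 16 in the PR-cre model, all 14 in the same direction. Over all genes these shares were 54.4% and 80.3%, with 99.1% in the same direction. Adam23 rose by 4.56 ± 0.52 and 5.47 ± 0.55, Mmp15 by 0.95 ± 0.14 and 0.96 ± 0.14, Mmp2 fell by 1.93 ± 0.59 and 2.72 ± 0.61, and Timp2 fell by 0.83 ± 0.18 and 0.52 ± 0.18. Timp3 differed by -1.54 ± 0.73 and -1.53 ± 0.73 and was called in neither (adjusted p = 0.119 and 0.153). Leaving out a library left between 13 and 18 calls in the Elf5 model and between 10 and 14 in the PR-cre model, with 10 without PR-cre TEB replicate 1.

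In the luminal gates 7 members were higher and 8 lower in TEBs, while 38.7% of all genes were called, 20% higher and 18.6% lower. The median log2 difference of the members was 0.15, or 0 with the 20 members that had a group at 0 set at the floor, against 0 over all genes. Mmp15 was the firmest of them. It ranged from 247 to 462 CPM (median 328) in the 8 duct libraries and from 177 to 239 CPM (median 199) in the 8 TEB libraries. No TEB library reached a duct library, and the log2 difference was -0.71 ± 0.07 (adjusted p = 6.39e-07). Adam15 (-0.47 ± 0.07), Adamtsl4 (-0.63 ± 0.11), Adamts9 (-0.79 ± 0.13) and Adamts10 (-0.45 ± 0.13) were lower as well, with overlapping libraries. Mmp14, Adam17 and Adamts3 were higher by 0.28 ± 0.07, 0.25 ± 0.05 and 0.77 ± 0.16 (adjusted p = 0.00288, 0.000363 and 0.00119), and here too the ranges overlapped because the reporter gates differ in level. Low transcripts that were called higher were Mmp25 (mean 3.29 against 0.481 CPM), Adamts6 (1.97 against 1.13 CPM), Adamts5 (2.30 against 0.803 CPM; 1.67 on the log2 scale, 2.31 without GFP- duct replicate 2 and 2.27 without YFP+ duct replicate 1) and the collagenase Mmp13 (0.421 against 0.0363 CPM, with 2 duct groups at 0). Of the 12 fibroblast genes, 5 were higher and 1 lower in luminal TEBs, with Col3a1 at 34.8 against 12.1 CPM, Lum at 1.85 against 0.338 CPM and Pdgfra at 4.28 against 15.3 CPM, and their summed level was 47.1 to 368 CPM in TEBs and 33.3 to 818 CPM in ducts. Their part in these values was not tested.

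The luminal Timp3 value rested on GFP- duct replicate 2. Timp3 was at 8.51 and 11.7 CPM in GFP+ ducts and 63.6 and 65.8 CPM in GFP+ TEBs, but at 186 and 230 CPM in YFP- ducts and 85.2 and 88.5 CPM in YFP- TEBs. In GFP- ducts it was at 3.19 and 52.1 CPM and in GFP- TEBs at 2.92 and 2.21 CPM, and in YFP+ cells at 17.6 and 8.88 CPM in ducts against 3.10 and 2.63 CPM in TEBs. The averaged difference of -1.06 ± 0.38 (adjusted p = 0.0426) became -0.29 (adjusted p = 0.151) without GFP- duct replicate 2 and -0.30 (adjusted p = 0.194) without both libraries that held keratinocyte transcripts. It was -0.97 (adjusted p = 0.0701) with the replicate number as a block. Adamts15 likewise went from -1.07 ± 0.33 (adjusted p = 0.0187) to -0.67 (adjusted p = 0.128) without that library and to -0.79 (adjusted p = 0.0636) without YFP+ duct replicate 1. Adamts12 (-0.44 ± 0.15, adjusted p = 0.031) lost its call when any of 8 libraries was left out, with -0.30 and adjusted p = 0.146 without GFP- duct replicate 1.

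The single luminal populations had fewer calls: 10 members in GFP+ (22.8% of all genes, 11.8% higher and 10.9% lower), 8 in GFP- (18.5%, 8.85% and 9.65%), 5 in YFP+ (7.86%, 4.61% and 3.25%) and 8 in YFP- cells (18.4%, 10.5% and 7.97%). Of these, 5, 4, 2 and 4 were higher. These counts moved with single libraries: from 3 to 7 in GFP+ (3 without TEB replicate 1), from 2 to 18 in GFP- (18 without duct replicate 1, 2 without TEB replicate 1), from 1 to 3 in YFP+ and from 3 to 4 in YFP- cells. Without the 2 libraries with keratinocyte transcripts they were 18 in GFP+, 1 in GFP- and 12 in YFP+ cells, and DESeq2 gave 13 in YFP+ cells. Mmp15 was called lower in GFP+ (-0.97 ± 0.14) and YFP- cells (-1.13 ± 0.14), and was at -0.33 ± 0.13 in GFP- and -0.43 ± 0.13 in YFP+ cells (adjusted p = 0.0963 and 0.0625). Timp2 fell in GFP+ TEBs (-0.67 ± 0.18, adjusted p = 0.0131) and rose in YFP+ TEBs (0.87 ± 0.18, adjusted p = 0.00712). Adamts9 fell in GFP+, GFP- and YFP+ TEBs (by 0.73, 1.89 and 1.68 on the log2 scale) and rose in YFP- TEBs (by 1.14), where it was at most 2.94 CPM.

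The TEB change itself was tested for a difference between the gates. For 19 of 65 members it differed (26.3% of all genes), 7 with a higher value in basal cells (11.4% of all genes) and 12 with a lower one (14.9%). For Mmp15 the basal change of 0.95 and the luminal change of -0.71 differed by 1.67 ± 0.12 (adjusted p = 4.78e-08). Adamts9 had opposite changes of 1.19 and -0.79 (difference 1.98 ± 0.20, adjusted p = 2.98e-06), and Adamts3 of -1.06 and 0.77 (difference -1.83 ± 0.28, adjusted p = 0.000184). Adam17 rose in both gates and more in basal cells (difference 0.46 ± 0.08, adjusted p = 0.000422), and Adam15 fell in both and more in basal cells (-0.65 ± 0.12, adjusted p = 0.000465). For Timp2 the basal change of -0.67 stood against a luminal change of 0.02 ± 0.09 (difference -0.69 ± 0.16, adjusted p = 0.0031). For Mmp2 the difference was -2.80 ± 0.59 (adjusted p = 0.00293), for Adamts2 -3.82 ± 0.35 (adjusted p = 8.1e-07) and for Adam23 5.05 ± 0.62 (adjusted p = 2.05e-05; 6.19 without luminal YFP- TEB replicate 1). Of the 23 members called in basal and the 15 called in luminal TEBs, which share no library, 11 were in both lists (47.8% and 73.3%). Of these, 5 changed in the same direction (Adam15, Adam17, Adamtsl4, Mmp14 and Timp3) and 6 in opposite directions (Adamts3, Adamts6, Adamts9, Adamts12, Mmp15 and Mmp25). Over all genes, 55.8% and 63% were in both lists, of which 17% changed in opposite directions. Of the 11 members, Adamts6 and Mmp25 had no count in either basal Elf5 TEB library. The luminal calls of Adamts12 and Timp3 were lost when single libraries were left out.

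**Figure D4:**
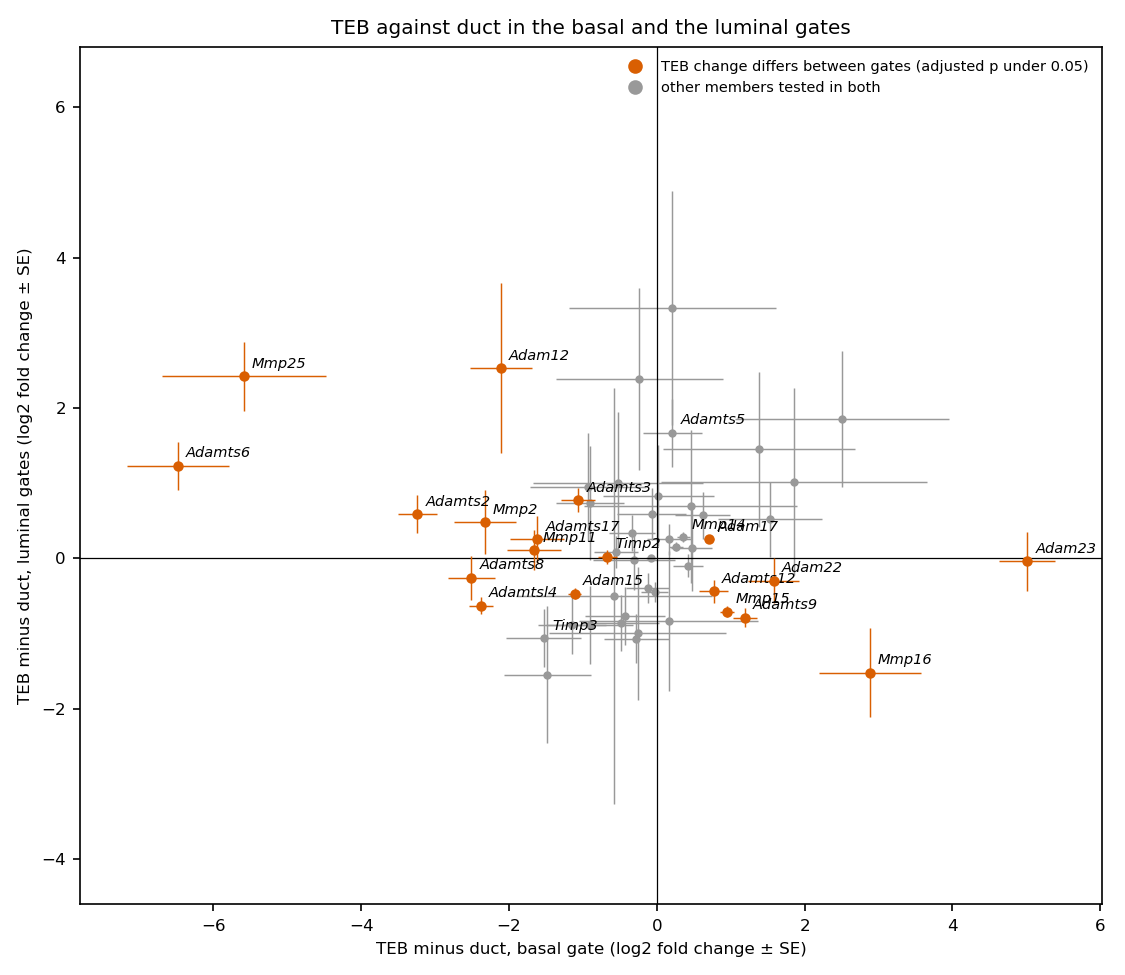
Log2 fold change between TEB and duct (± SE) in the basal gate (4 against 4 libraries, x axis) and the luminal gates (8 against 8, y axis) for members with a test in both; orange marks the 19 whose TEB change differed between gates. Mmp15 and Adamts9 lie to the lower right, higher in basal and lower in luminal TEBs, and Adam23 at 5.01 on the x axis is near 0 on the y axis; the far left points Mmp25 and Adamts6 have a basal group at 0, so their fitted size depends on the prior count.

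Partner genes were compared between TEB and duct as well. Over all genes, 20.9% were higher and 22.8% lower in basal TEBs. Of 14 convertases and ADAM partners 5 were higher there and 4 lower. The convertase Pcsk6 rose from a mean of 42.5 to 356.1 CPM (3.88 ± 0.25, adjusted p = 2.79e-08), with ducts at 6.43 to 104.7 and TEBs at 270.8 to 466 CPM, and Furin, which activates MT-MMPs and ADAMs, rose by 0.46 ± 0.09. Reck fell by 1.52 ± 0.19 (63.7 to 21.2 CPM). Of 8 plasminogen genes 1 rose, the inhibitor Serpine2 (2.96 ± 0.19), and 3 fell, among them Plat (-3.13 ± 0.42). Of 8 shed EGF-family ligands 4 rose, among them Nrg1 (2.60 ± 0.36), Tgfa (1.55 ± 0.16) and Areg (1.74 ± 0.49, 3.40 to 10.9 CPM), and Hbegf fell by 1.87 ± 0.27. Of 11 ADAMTS substrates and partners 4 rose and 2 fell, with Vcan at 750.1 CPM in ducts against 3260 CPM in TEBs (2.21 ± 0.31). Of 5 astacin genes, Tll1 rose (2.85 ± 0.42) and Bmp1 fell (-1.03 ± 0.12). In luminal TEBs, where 20% of all genes were higher, the plasminogen list had 5 of 8 higher, with Plau at 23.6 against 4.72 CPM (2.13 ± 0.24). Pcsk6 rose there too (2.55 ± 0.18).

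The reporters divided the luminal cells into gates with contrasting protease profiles. GFP+ cells averaged 1162 CPM of Elf5, against 40.2 CPM in GFP- cells, and YFP+ cells averaged 408 CPM of Pgr (the progesterone receptor) against 23.4 CPM in YFP- cells. In GFP+ against GFP- cells 14 members were higher and 12 lower (45.8% of all genes called, 24.1% higher and 21.7% lower), with a median of 0.24, or 0.15 with 10 members at the floor. In YFP+ against YFP- cells 13 were higher and 19 lower (50.3% of all genes, 24.8% higher and 25.5% lower), with a median of -0.39, or -0.44 with 17 members at the floor. These comparisons share no library. Of the 26 and 32 members called, 20 were in both lists (76.9% and 62.5%), and all 20 had opposite signs. Over all genes the shares called in both were 76.5% and 69.6%, and 97.3% of those had opposite signs, so the members followed the genome-wide pattern. By family, 6 of 20 Adam genes were lower in GFP+ cells and 7 higher in YFP+ cells, while 7 of 19 Adamts genes were higher in GFP+ cells and 11 lower in YFP+ cells.

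**Figure D5:**
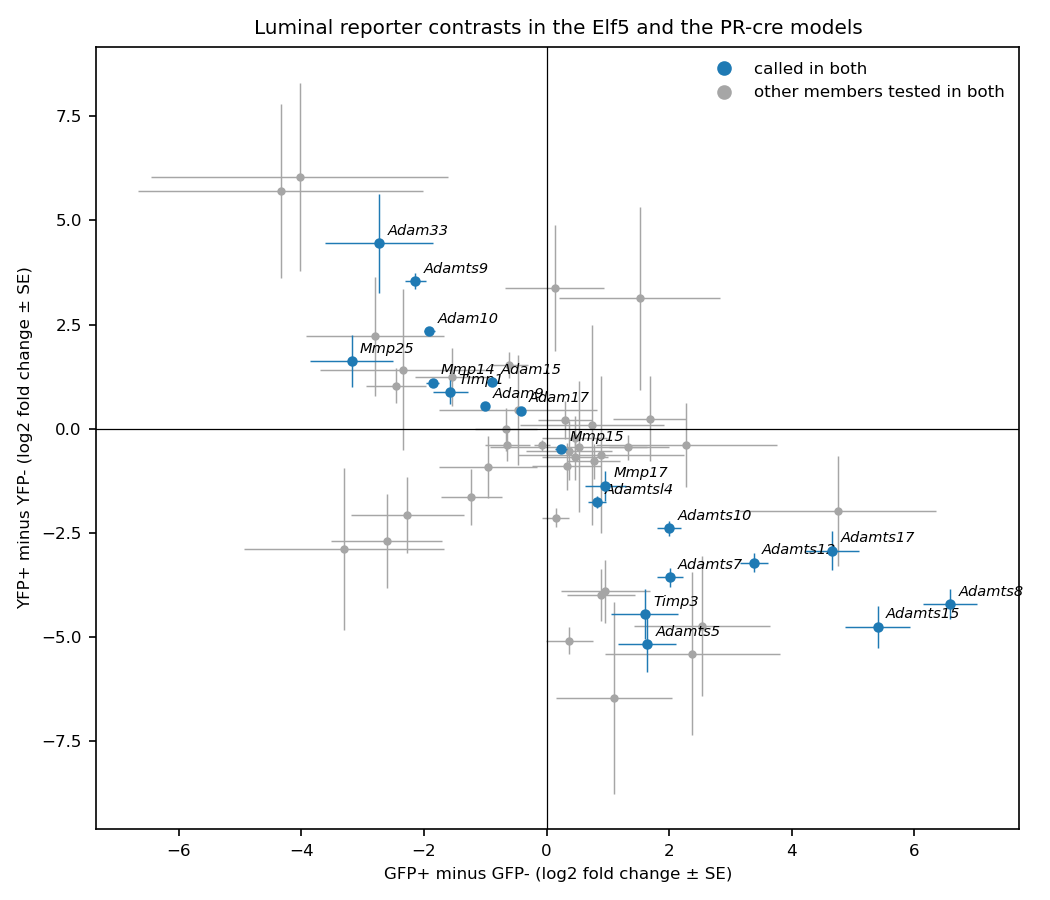
Log2 fold change (± SE) of members between GFP+ and GFP- cells of the Elf5 model (x axis) and between YFP+ and YFP- cells of the PR-cre model (y axis), 4 against 4 libraries each; blue marks the 20 called in both. All 20 lie in the upper left quadrant (Adam10, Mmp14, Adam9, Adam15, Adam17, Adamts9 among them) or the lower right (Adamts7, Adamts8, Adamts15, Timp3 among them). For members with a compared group at 0 counts the fitted size depends on the prior count. Adam33, for example, is drawn at 4.45 on the y axis and was at 2.54 with the floor.

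The cell-surface sheddases followed the GFP- and YFP+ gates. Adam10 was at 155, 210, 218 and 213 CPM in GFP+ libraries and 725, 608, 782 and 881 CPM in GFP- libraries (-1.91 ± 0.09, adjusted p = 9.48e-11). In the PR-cre model it was at 995, 1037, 859 and 762 CPM in YFP+ and 152, 163, 215 and 192 CPM in YFP- libraries (2.34 ± 0.09, adjusted p = 1.66e-11). The gates did not overlap in either model, and the basal range of 130 to 170 CPM lay at the bottom of the low luminal gates. Adam9, Adam15 and Adam17 were lower in GFP+ cells (-1.01 ± 0.06, -0.89 ± 0.09 and -0.42 ± 0.07) and higher in YFP+ cells (0.54 ± 0.06, 1.12 ± 0.09 and 0.44 ± 0.07). The ADAM17 substrate Areg went the same way, at 87.7 against 1725 CPM in GFP+ against GFP- cells and 1915 against 91.2 CPM in YFP+ against YFP- cells. The ADAM10-binding tetraspanins Tspan15 and Tspan33 went the other way, with 2.14 ± 0.19 and 4.47 ± 0.16 in GFP+ and -2.14 ± 0.19 and -3.05 ± 0.15 in YFP+ cells. Adam8 averaged 9.83 against 3.48 CPM in YFP+ against YFP- cells (1.53 ± 0.31).

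Of the membrane-type MMPs, Mmp14 went with Adam10. It was at 76.3, 103, 105 and 114 CPM in GFP+ and 334, 296, 366 and 462 CPM in GFP- libraries (-1.86 ± 0.10, adjusted p = 1.68e-10), and at 168 to 225 CPM in YFP+ and 86.8 to 98.6 CPM in YFP- libraries (1.11 ± 0.09, adjusted p = 4.35e-08). Of the GFP- libraries, 3 of 4 were above the highest basal value of 298 CPM. Mmp15 was lower in YFP+ cells by 0.48 ± 0.10 (adjusted p = 0.000454). Its GFP difference of 0.24 ± 0.10 (adjusted p = 0.0455) lost its call when any of 7 libraries was left out, with 0.12 and adjusted p = 0.375 without GFP- TEB replicate 1, and also with DESeq2 (0.22, adjusted p = 0.0747), other size factors or the replicate block (0.24, adjusted p = 0.0528). Mmp25 was at most 0.915 CPM in GFP+ and 0.336 to 7.76 CPM in GFP- libraries (-3.18 ± 0.68, adjusted p = 0.00115; -2.58 without GFP- duct replicate 1).

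Several secreted Adamts genes were higher in GFP+ and YFP- cells, 7 of 19 in the GFP and 11 in the YFP comparison. Adamts15, a versican-cutting member, was at 112, 107, 96.3 and 94.0 CPM in GFP+ libraries and 1.09, 5.72, 1.56 and 1.84 CPM in GFP- libraries (5.40 ± 0.53, adjusted p = 1.48e-06; 6.18 without GFP- duct replicate 2). In the PR-cre model it was at 19.7, 5.79, 3.92 and 1.13 CPM in YFP+ and 225, 169, 141 and 96.5 CPM in YFP- libraries (-4.75 ± 0.51, adjusted p = 2.87e-06). Adamts8 was at 7.62 to 12.2 CPM against at most 0.196 CPM in the Elf5 model, and at 0.207 to 1.195 CPM against 9.18 to 12.4 CPM in the PR-cre model. Adamts17 (33.7 against 1.25 CPM; 0.721 against 5.13 CPM), Adamts12 (11.9 against 1.17; 1.18 against 10.2), Adamts7 (14.7 against 3.61; 2.23 against 26.4) and Adamts10 (21.7 against 5.46; 5.29 against 29.0) gave mean CPM of the same order, each pair naming first the GFP and then the YFP comparison, reporter-positive cells first. None of these 5 pairs of gates overlapped in either model. A few Adamts genes went the other way. Adamts9 was at 5.20 against 27.1 CPM in GFP+ and 22.8 against 1.77 CPM in YFP+ cells (-2.14 ± 0.17 and 3.55 ± 0.19). Adamts6 was lower in GFP+ cells (0.255 against 1.11 CPM, -2.46 ± 0.49; -1.86 without the libraries with keratinocyte transcripts) and not called in YFP+ cells (1.04, adjusted p = 0.0526), and the scarce Adamts16 was called higher in YFP+ cells (0.159 CPM against no count, adjusted p = 0.0371), a call lost when any of the 4 YFP- libraries was left out (adjusted p from 0.0795 without TEB replicate 2 to 0.0849 without duct replicate 1) and with DESeq2 (adjusted p = 0.0781). In the YFP comparison Adamts1 (9.17 against 145 CPM), Adamts2 (0.349 against 11.4 CPM) and Adamts3 (36.8 against 148 CPM) were also lower in YFP+ cells (-3.98 ± 0.62, -5.08 ± 0.32 and -2.13 ± 0.23), and none of these was called in the GFP comparison. For Adamts1 that comparison included GFP- duct replicate 2, a library with keratinocyte transcripts, at 88.5 CPM. The remaining GFP- libraries were at 5.65 to 8.59 CPM, below all GFP+ libraries at 16.1 to 68.1 CPM.

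The inhibitors differed between the reporter gates as well. Timp3 was at 2.63 to 17.6 CPM in YFP+ and 85.2 to 230 CPM in YFP- libraries, with no overlap (-4.44 ± 0.59, adjusted p = 2.76e-05). Its GFP difference of 1.60 ± 0.55 (adjusted p = 0.0285) was 3.12 (adjusted p = 8.32e-08) without GFP- duct replicate 2 and lost its call when any of 6 other libraries was left out, with 1.51 and adjusted p = 0.1 without GFP- TEB replicate 2. Timp1 was lower in GFP+ (3.46 against 9.96 CPM, -1.57 ± 0.29, adjusted p = 0.000272). In YFP+ cells it was higher by 0.88 ± 0.29 (adjusted p = 0.0175), a call lost without YFP- TEB replicate 2 (0.81, adjusted p = 0.0622) or YFP+ TEB replicate 2 (0.71, adjusted p = 0.083). Timp4 was seen chiefly in YFP+ ducts, at 1.72 and 2.46 CPM, then in YFP+ TEBs at 0.660 and 0.646 CPM, and at most 0.162 CPM in YFP- cells (3.82 ± 1.19, adjusted p = 0.0169). That call was lost without YFP- duct replicate 2 or YFP- TEB replicate 2, and the log2 difference was 5.93 without YFP- TEB replicate 1. In the Elf5 model Timp4 had no count in GFP- ducts or GFP- TEBs and was at most 0.102 CPM in GFP+ cells. Timp2 differed by -0.39 ± 0.13 between YFP gates (adjusted p = 0.0162), and the call was lost without YFP- duct replicate 2 (-0.23, adjusted p = 0.174), YFP+ duct replicate 2 (-0.33, adjusted p = 0.0801) or YFP+ TEB replicate 1 (-0.32, adjusted p = 0.0898).

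Genes with the most similar profile over the 12 group means, by Pearson correlation of log2 CPM, are given as a description, since the groups share the same gates. For Adam23 these were Anks1b (r = 0.996), Serpinb1b (0.995) and Abcc12 (0.995). For Adam10 they were Avpi1 (0.997) and G6pdx (0.991), for Mmp15 Lyrm9 (0.993) and Epb41l5 (0.987), for Mmp2 Ube2o (0.990) and for Timp3 Palld (0.977) and Sema3c (0.975).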

How the data were processed

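RNA-seq counts of 24 libraries were analysed. Per the submitters' processing notes, the authors counted reads per gene with featureCounts on mm10, and the deposited values are raw counts with counted exon lengths; aligner, annotation release and strand setting: not given in the sources used here. Per the labels' protocols, total RNA went into TruSeq RNA v2 libraries, a kit that does not mark strand, so reads of a gene and an antisense partner cannot be told apart. No label ties replicates to different mice, and p-values therefore reflect only library-to-library spread, which may be technical. Replicates differed beyond sampling noise (chi-square over its degrees of freedom, 17.3 to 166). Rows without a matched symbol held 1.24% of counts, and 25275 of 27179 genes matched one.

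Genes passing edgeR's expression filter (minimum count 10, minimum total 15; 18109 genes) were fitted with edgeR 4.0.16 in R 4.3.3 (TMM scaling, quasi-likelihood test, 12 group means, 12 residual degrees of freedom), with Benjamini-Hochberg adjustment over all 18109 genes and calls at adjusted p under 0.05. Groups were averaged as log2 values, and a fold can therefore differ from the ratio of mean CPM. SE is the log2 difference over the root of F. For members with a compared group at 0 counts, the report gives CPM in place of a fold. The plots of TEB changes and of reporter contrasts and the list of differences between gates show fitted values, marked as such. RPKM is CPM per kilobase of the deposited length.

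Members, lists and the rule for named genes were chosen with earlier results of these data known. Named are up to 10 called members with the largest change per contrast, all Timp genes, preset members and those whose TEB change differed between gates; companion lists are given by counts and up to 4 genes. Marker lists covered basal, luminal, fibroblast, immune, endothelial and pericyte, adipocyte and keratinocyte genes. Alternatives were other size factors, DESeq2 1.42.0, limma-voom 3.58.1, other filters, a replicate block, pooled means, and omitted libraries.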

Additional observations from a re-analysis of the deposited data

Results flagged for a closer look

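In 19 members the change between TEB and duct differed between the basal and the luminal gates by edgeR's interaction contrast (log2 change in basal minus that in luminal cells), while 26.3% of all genes did so. Higher in the basal gate were the differences of Adam23 (5.05), Mmp16 (4.41), Adamts9 (1.98), Adam22 (1.88), Mmp15 (1.67), Adamts12 (1.20) and Adam17 (0.46). Lower were those of Adamts2 (-3.82), Mmp2 (-2.80), Adamts8 (-2.24), Adamts17 (-1.88), Adamts3 (-1.83), Mmp11 (-1.77), Adamtsl4 (-1.75), Timp2 (-0.69) and Adam15 (-0.65). The fitted differences of Mmp25 (-8.01), Adamts6 (-7.71) and Adam12 (-4.64) involve a group at 0 counts and depend on the prior count. Without luminal YFP- TEB replicate 1 the values of Adam23 and Mmp16 were 6.19 and 5.75, without basal PR-cre duct replicate 1 that of Mmp16 was 5.12, and without luminal GFP- duct replicate 1 that of Adamts8 was -3.45.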

How the results depend on the processing

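Of the 48 members called between basal and luminal cells, 37 kept the call under every alternative that gave a usable test of them. So did 30 of 44 in ducts, 30 of 44 in TEBs, 9 of 23 for the basal TEB, 2 of 15 for the luminal TEB, 4 of 19 for the difference, 17 of 26 for GFP and 23 of 32 for YFP. A member that an alternative could not test, such as one below its filter, was not counted as lost. Pooling models and reporter gates into compartment means, which puts unlike populations into a group, left 5 lower members in ducts (9 before), 4 higher and 5 lower for the basal TEB (9 and 14), 2 and 1 for the luminal TEB (7 and 8) and 2 and 3 for the difference (7 and 12). It also turned Mmp16 between basal and luminal cells to -0.2 and Adamts8 between them in TEBs to -0.78; limma-voom gave 14 higher members for the basal TEB. Leaving out a library gave 33 to 39 higher and 10 to 11 lower members between basal and luminal cells, 8 to 10 and 12 to 14 for the basal TEB, 7 to 9 and 6 to 8 for the luminal TEB, 6 to 8 and 11 to 14 for the difference, 9 to 16 and 9 to 15 for GFP (9 without GFP+ duct replicate 1, 16 without GFP- duct replicate 2) and 8 to 12 and 15 to 20 for YFP (8 without YFP- TEB replicate 2). In single populations, with alternatives chosen after seeing the data, it gave 13 to 18 calls in Elf5 basal, 10 to 14 in PR-cre basal, 3 to 7 in GFP+, 2 to 18 in GFP-, 1 to 3 in YFP+ and 3 to 4 in YFP- cells, where the lone library left is assumed to vary like the other groups. Without the 2 libraries with keratinocyte transcripts these were 18 in GFP+, 1 in GFP- and 12 in YFP+ cells, and DESeq2 gave 13 in YFP+ cells; the cause was not tested. Same-numbered libraries tended to deviate together weakly (30 pairs, r from -0.02 to 0.37, median 0.11, 16 above 0.1). For the 6 pairs of duct and TEB libraries r ran from 0.06 to 0.23, with 5 above 0.1. The labels do not say whether same-numbered libraries share a preparation. The main fit took them as independent, and the replicate number was run as a block instead of pairs. With the replicate block 36 higher and 12 lower members were called between basal and luminal cells, 9 and 15 for the basal TEB, 8 and 7 for the luminal TEB, 7 and 12 for the difference, 13 and 13 for GFP and 11 and 19 for YFP. With 2 libraries per group, and 3 counts in a single library at 0.058 to 0.097 CPM, the 20 members below the expression filter could not be compared at this depth.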
